A study of Homo sapiens with 24 samples.

Results

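This account covers 35 genes of fatty acid synthesis and oxidation, chosen by name, out of 33382 genes in the expression tables of SW480 and SW620 cells, which are human colorectal adenocarcinoma lines from the same patient. They comprise 7 genes of synthesis, 3 of elongation, 3 of desaturation, 4 of activation, 3 of carnitine entry, 12 of beta-oxidation and 3 of electron transfer to the respiratory chain. All 35 passed the filter on low counts, among 15302 genes tested. Each line had been infected with a lentivirus that carried Tet2CD, the catalytic domain of the DNA demethylase TET2, or with the empty virus (vector), and all cells had been selected with puromycin at 5 µg/ml. Each of these populations was treated for 24 h with TGFB1 at 4 ng/ml, with 1 µM RepSox, which blocks the TGF-beta type I receptor ALK5, or with the solvent DMSO. The 12 groups were therefore SW620 Tet2CD, SW620 vector, SW480 Tet2CD and SW480 vector, each under TGFB1, RepSox and DMSO, with 2 RNA-seq libraries per group. Each infected line was a drug-selected population. The labels do not say whether paired libraries were grown separately, and a p-value here reflects only how far such libraries varied, which may be technical variation. In bulk RNA, fewer cells that express a gene and less RNA per cell cannot be told apart. The treatment doses and the time are those of the sample labels, and the study's own description of its treatments differs from them.

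Fatty acids are built in the cytosol. ATP citrate lyase (ACLY) and the acetate enzyme ACSS2 supply acetyl-CoA, acetyl-CoA carboxylase (ACACA) turns it into malonyl-CoA, fatty acid synthase (FASN) makes palmitate with NADPH that comes in part from malic enzyme (ME1), and the transcription factor SREBF1 switches these genes on. Palmitate is then lengthened by ELOVL enzymes and given double bonds by desaturases. For oxidation, an acyl-CoA synthetase (ACSL) first activates the acid, the carnitine shuttle (CPT1A, SLC25A20, CPT2) carries it into mitochondria, and acyl-CoA dehydrogenases, hydratases and thiolases shorten it step by step. The electrons pass through the flavoprotein ETFA/ETFB and its dehydrogenase ETFDH. Malonyl-CoA made by ACACB inhibits CPT1A, so that the directions oppose each other.

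Promoters of 5 genes whose levels differed are shown first, from RefSeq on GRCh38.p14, each running from 250 bases before the transcription start to 50 after it, 5′ to 3′ on the gene's own strand. Of the 35 genes, 31 had at least 1 such window, 46 windows in all. ACAA1, DECR1, ETFDH and FASN are named without a window. Capitals mark matches, on either strand, to a CCAAT box (CCAAT) or a GC box (GGGCGG).
SCD, chr10:100346983-100347282, plus strand: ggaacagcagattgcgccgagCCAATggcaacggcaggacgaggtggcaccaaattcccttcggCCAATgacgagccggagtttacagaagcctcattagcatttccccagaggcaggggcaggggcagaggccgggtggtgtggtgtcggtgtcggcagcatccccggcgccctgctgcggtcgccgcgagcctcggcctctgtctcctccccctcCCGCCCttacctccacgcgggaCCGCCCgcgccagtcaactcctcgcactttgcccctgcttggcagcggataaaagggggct
FADS1, chr11:61816954-61817253, minus strand: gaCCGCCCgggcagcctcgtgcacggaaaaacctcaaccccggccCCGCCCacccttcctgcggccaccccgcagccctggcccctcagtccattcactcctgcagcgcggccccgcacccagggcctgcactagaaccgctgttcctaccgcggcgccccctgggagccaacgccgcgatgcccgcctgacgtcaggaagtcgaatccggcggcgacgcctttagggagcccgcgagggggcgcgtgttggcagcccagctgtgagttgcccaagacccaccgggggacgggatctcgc
FADS2, chr11:61816154-61816453, plus strand: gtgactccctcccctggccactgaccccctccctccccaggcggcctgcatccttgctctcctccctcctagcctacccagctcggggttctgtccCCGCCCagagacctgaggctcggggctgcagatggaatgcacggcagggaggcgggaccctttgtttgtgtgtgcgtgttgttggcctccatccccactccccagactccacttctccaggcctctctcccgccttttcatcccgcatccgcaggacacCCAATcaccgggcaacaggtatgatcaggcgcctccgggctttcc
ACSL1, chr4:184825919-184826218, minus strand: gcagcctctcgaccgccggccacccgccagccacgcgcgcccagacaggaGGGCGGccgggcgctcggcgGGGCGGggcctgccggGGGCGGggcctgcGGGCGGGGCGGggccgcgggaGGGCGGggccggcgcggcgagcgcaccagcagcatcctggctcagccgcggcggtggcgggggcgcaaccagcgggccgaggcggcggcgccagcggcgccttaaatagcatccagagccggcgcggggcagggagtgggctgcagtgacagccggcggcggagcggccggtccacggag
SLC25A20, chr3:48898833-48899132, minus strand: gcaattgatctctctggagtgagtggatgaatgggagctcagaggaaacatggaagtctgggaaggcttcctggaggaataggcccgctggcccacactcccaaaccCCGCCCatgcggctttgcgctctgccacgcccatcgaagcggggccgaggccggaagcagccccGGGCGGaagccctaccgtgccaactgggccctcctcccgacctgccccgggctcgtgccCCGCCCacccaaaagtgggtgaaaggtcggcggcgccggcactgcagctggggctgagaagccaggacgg
The first 4 are shown because these genes were among those with the largest differences between lines or under TGFB1, and SLC25A20 because its Tet2CD difference changed little when doubtful libraries were left out. ACSL1 and FADS2 also have other windows in the table. The SCD window holds 2 CCAAT boxes and 2 GC boxes, the FADS2 window 1 of each, the FADS1 window 2 GC boxes, the ACSL1 window 6 GC boxes, 2 of which overlap, and the SLC25A20 window 3 GC boxes. FADS1 and FADS2 lie on opposite strands, with this FADS2 start 599 bases from the FADS1 start, and from these starts each is read towards the other. A CCAAT box was in 15 of the 46 windows, against 34.6% of all 35116 windows, and a GC box was in 33 of the 46, against 45.0% of all windows. The sterol regulatory element core TCACNCCAC, bound by SREBF1, was found for ACSL1 alone, in another of its windows, and is in 1.13% of all windows. The E-box CACGTG was found for ELOVL5 alone and is in 7.26% of all windows. The estrogen-related receptor element TNAAGGTCA was found in none of the 46 windows and is in 0.951% of all. Such matches describe letters and not binding.

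Library totals lay between 2146123 and 4410567 expected counts with a median of 3653712. TET2 reads lay between 693 and 1276 CPM (counts relative to the scaled library size) in SW620 Tet2CD libraries, against 10.5 to 25.0 CPM in SW620 vector libraries, and between 270 and 2640 CPM in SW480 Tet2CD libraries, against 10.3 to 23.8 CPM in SW480 vector libraries. The 3 SW480 Tet2CD replicate 1 libraries stood apart. Ribosomal protein genes took 10.1% to 15.0% of their counts, against 5.74% to 9.42% in the other 21 libraries, and the log2 differences between the 2 libraries of a group had a standard deviation (SD) of 0.78 to 1.24 in the 3 SW480 Tet2CD groups, against 0.49 to 0.64 in the other 9. Within these pairs, 13 of the 35 genes were higher in replicate 1 under all 3 treatments and 14 were lower. The median log2 difference, replicate 1 over replicate 2, was 0.41 for the 18 genes of carnitine entry, beta-oxidation and electron transfer and -0.39 for the 13 genes of synthesis, elongation and desaturation. Across all genes, these differences correlated at 0.59 to 0.71 between the 3 SW480 Tet2CD groups. The 3 libraries thus varied together, and a p-value that counts the 6 SW480 Tet2CD libraries as independent may be too small. They also had lower totals, 2146123 to 2713878 expected counts, against 2817697 to 4410567 in the other 21. Their TET2 expected counts, not scaled, were 2280 under DMSO, 1996 under TGFB1 and 445 under RepSox. The replicate 2 libraries had 7444, 10103 and 5788. The part of TET2 level in what set apart these 3 libraries was not tested. Most main results that rest on these libraries are given with and without them. For ACACA, SCD, FASN and ELOVL6, the SW480 averages without them are only drawn, in the plot of Tet2CD over vector, and CPM of the replicate 2 libraries are given. Of 11 colon epithelial markers, 7 reached a median of 10 counts in both lines, and KRT20, CDH17, CDX1 and CEACAM5 did not. Markers of fat cells (3 genes) summed to at most 2.88 CPM and markers of liver (3 genes) to at most 0.753 CPM in any library. Blood markers (4 genes) summed to at most 6.06 CPM. Of 3 endothelial markers, 2 reached a median of 10 counts in SW620 and 1 in SW480, with sums up to 16.3 and 14.4 CPM. Of 4 fibroblast markers, 2 reached it in SW620 and 1 in SW480, with sums up to 36.1 and 22.9 CPM.

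Levels of different genes are compared per length, as TPM, which takes the length of the transcripts into account. In 22 of the 24 tables the effective length of every gene equals its length, and in SW480 Tet2CD DMSO replicate 1 and SW480 Tet2CD RepSox replicate 1 it does not, so TPM in those libraries rests on another length rule. ACADVL, the dehydrogenase for very long acyl chains, had the highest median TPM over the 24 libraries, 716 TPM, with a range of 490 to 876 TPM. SCD, the stearoyl-CoA desaturase that makes oleate, had a median of 303 TPM, ETFB 246 TPM, FASN 202 TPM and ETFA 196 TPM. ACACB (7.80 TPM), ACADS (10.6 TPM), ETFDH (11.1 TPM) and ACSL5 (11.6 TPM) were at the low end, with ACACB below the other acetyl-CoA carboxylase, ACACA, whose median was 48.4 TPM. As a ratio of highest to lowest, the range was widest for ACADM, the medium-chain dehydrogenase, at 1.16 to 70.8 TPM, and its lowest value, from 3 counts, was in the SW480 Tet2CD RepSox replicate 1 library, which is among the 2 with the other length rule. The range of HADHA, the larger subunit of the trifunctional protein, was 110 to 191 TPM.

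**Figure D1:**
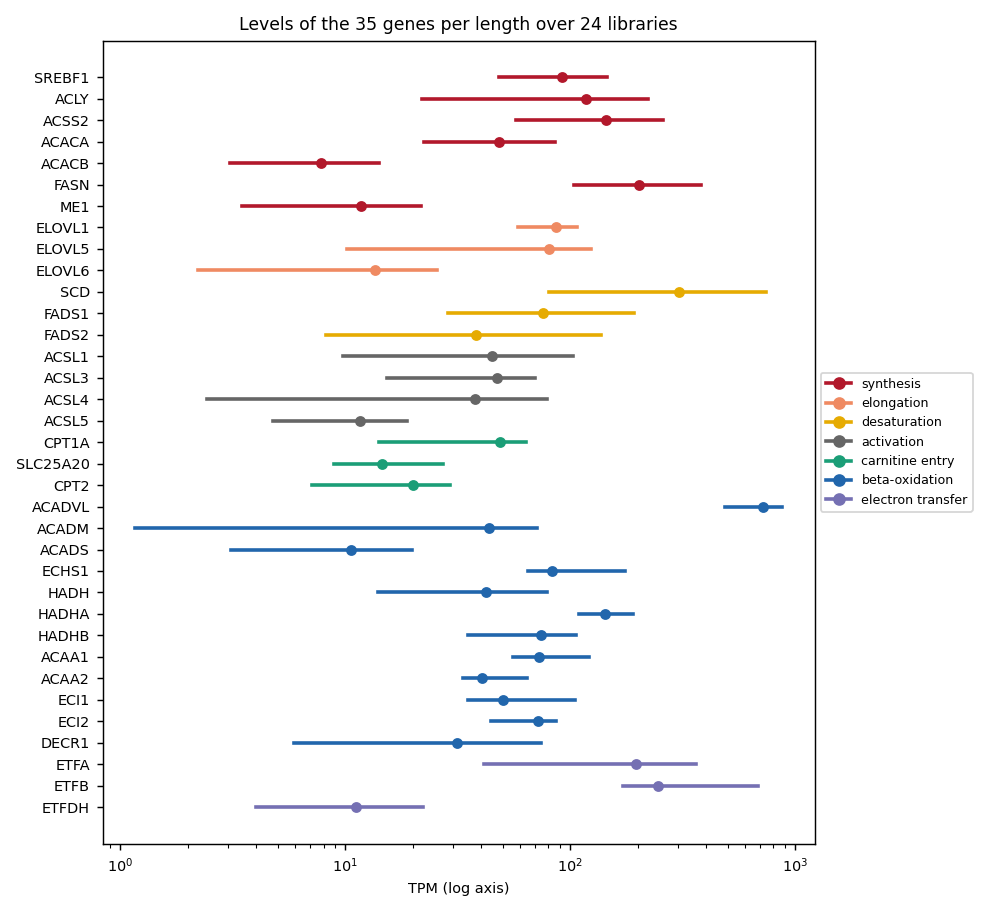
Level of each of the 35 genes as TPM on a log axis, with the point at the median and the line from the lowest to the highest of 24 libraries, coloured by role. ACADVL (716 TPM), SCD (303 TPM) and ETFB (246 TPM) had the highest medians and ACACB (7.80 TPM) the lowest.

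The comparison of SW620 with SW480 vector cells asks how the lines differ before Tet2CD or TGF-beta is considered. Under DMSO, 14 of the 35 genes differed, 6 higher and 8 lower in SW620, where 34.5% of all genes tested were called (edgeR's quasi-likelihood test, Benjamini-Hochberg adjusted p under 0.05). Of the 13 lipogenic genes (synthesis, elongation, desaturation), 1 was higher, 5 were lower and 7 were not called, with a median log2 fold change of -0.61. The 18 oxidation genes (carnitine entry, beta-oxidation, electron transfer) had 5 higher and 2 lower and a median of 0.25, against 0.03 over all genes tested. ACSL1, which activates long-chain fatty acids, had 18.3 and 18.2 CPM in SW620 libraries, against 145 and 159 CPM in SW480 libraries (log2 fold change -3.06, SE 0.37, adjusted p = 7.2e-06). FADS2, the delta-6 desaturase, had 11.8 and 12.3 CPM in SW620, against 78.4 and 92.2 CPM in SW480 (-2.82, SE 0.23, adjusted p = 8.6e-08). For both genes the lines were far apart and their libraries did not overlap. DECR1, the dienoyl-CoA reductase needed for polyunsaturated chains, went the other way, with 35.0 and 30.2 CPM in SW620, against 5.58 and 7.17 CPM in SW480 (2.34, SE 0.38, adjusted p = 0.00013). ETFDH had 15.8 and 16.1 CPM in SW620, against 6.17 and 5.12 CPM in SW480 (1.50, SE 0.30, adjusted p = 0.0010). ACSS2, which makes acetyl-CoA from acetate, had 86.7 and 76.0 CPM in SW620, against 223 and 227 CPM in SW480 (-1.47, SE 0.17, adjusted p = 4.2e-06), and HADH, the short-chain hydroxyacyl-CoA dehydrogenase, had 27.5 and 28.4 CPM, against 79.3 and 63.0 CPM (-1.34, SE 0.26, adjusted p = 0.00074). The beta-oxidation enzymes thus did not differ as a block, since DECR1 and ACADS were higher while HADH and HADHA were lower.

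FASN had 393 and 367 CPM in SW620 vector DMSO libraries, against 574 and 714 CPM in SW480 (log2 fold change -0.76, SE 0.16, adjusted p = 0.0011). SCD had 694 and 743 CPM, against 1057 and 1152 CPM (-0.62, SE 0.24, adjusted p = 0.054), so its libraries did not overlap but the difference missed the threshold. SREBF1 (166 and 167 CPM, against 141 and 157 CPM), CPT1A, the rate-controlling carnitine palmitoyltransferase (121 and 118 CPM, against 133 and 143 CPM), and ACADM (45.2 and 47.8 CPM, against 43.2 and 31.2 CPM) were not called, with adjusted p of 0.48, 0.57 and 0.69. The other called genes were ACADS (1.27), ETFA (1.02), SLC25A20 (0.99) and ACACB (0.62) upwards and FADS1 (-1.17), HADHA (-0.54) and ACACA (-0.53) downwards. When any 1 of the 4 libraries was left out, ACACB, HADHA, ACADS and ACACA lost their calls, and SLC25A20 lost its call without SW480 vector DMSO replicate 1, with log2 fold changes of 0.81 to 1.11 over the 4 fits. Without the 3 libraries that stood apart, which enter this contrast only through the shared estimate of the spread, 22 of the 35 genes were called, 7 higher and 15 lower, where 50.1% of all genes were.

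Averaged over the 3 treatments, 21 of the 35 genes differed between the vector lines, 9 higher and 12 lower in SW620, where 58.9% of all genes were called. DECR1 had 30.2, 38.9 and 44.3 CPM (lowest, median, highest of 6) in SW620, against 2.44, 6.37 and 9.10 CPM in SW480 (log2 fold change 2.82, SE 0.22, adjusted p = 1.1e-08). FADS2 (-2.57, SE 0.13) and ACSL1 (-2.04, SE 0.20) again had the largest decreases, and all 3 desaturases were lower. SCD (-0.54, SE 0.14, adjusted p = 0.0028) passed here, with 694, 1045 and 1200 CPM in SW620, against 983, 1207 and 2185 CPM in SW480, so that the libraries overlapped. ETFA (1.10), ETFDH (0.95), SLC25A20 (0.88) and CPT2 (0.47) were higher in SW620, while SREBF1 (0.10, adjusted p = 0.40), CPT1A (-0.05, adjusted p = 0.81) and ACADM (0.50, adjusted p = 0.18) were not called. ACADVL (0.35, adjusted p = 0.038) lost its call whichever of the 12 libraries was left out. ELOVL5 (0.67, adjusted p = 0.023) lost its call in all but 1 of these fits, and CPT2 without SW620 vector DMSO replicate 1 or SW620 vector TGFB1 replicate 1. The gene spans of FADS1 and FADS2 overlap on opposite strands, as do those of HADHA and HADHB, and with the strand use of the counting not given in the sources used here, reads from the shared stretches cannot be assigned with certainty to either.

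**Figure D2:**
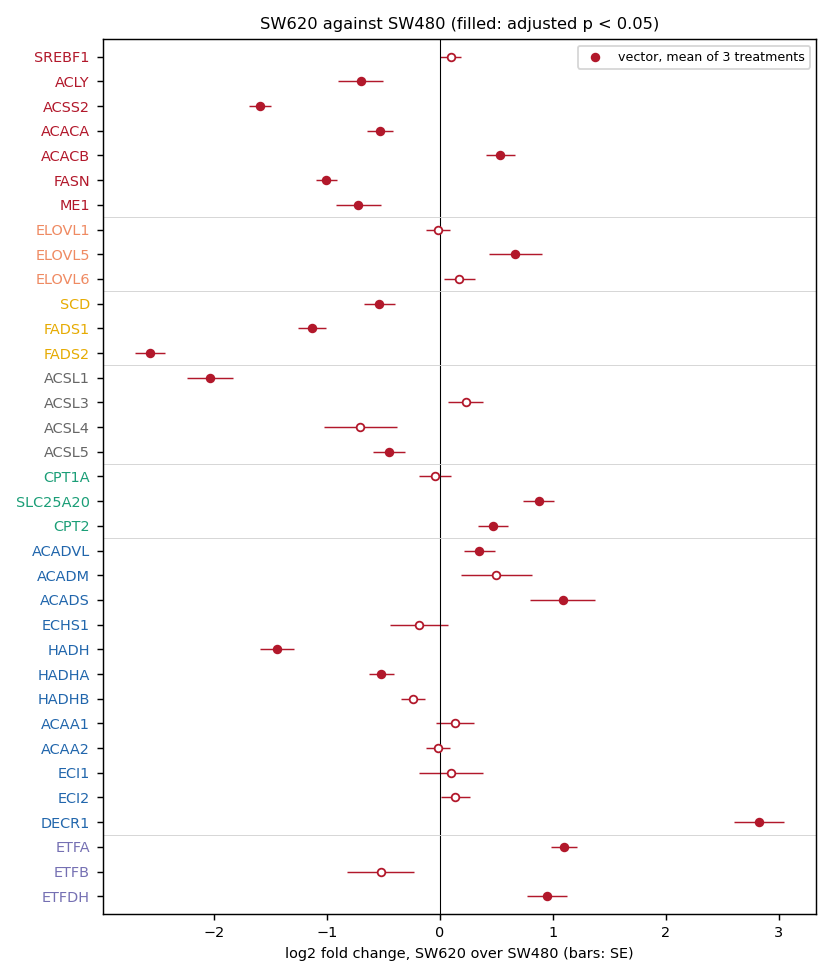
Log2 fold change of each gene in SW620 over SW480 vector cells, averaged over 3 treatments (6 libraries against 6), with bars of 1 SE and filled points at adjusted p under 0.05. DECR1 (2.82) lies farthest to the right, and FADS2 (-2.57) and ACSL1 (-2.04) farthest to the left.

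The comparison of Tet2CD with vector asks what the catalytic domain changed within each line. In SW480 under DMSO, 4 of the 35 genes were called, where 6.76% of all genes were: SLC25A20, FADS2 and SREBF1 were higher and ACACA was lower. SLC25A20, the carnitine-acylcarnitine carrier of the inner mitochondrial membrane, had 20.8 and 16.4 CPM with Tet2CD, against 8.52 and 10.5 CPM with vector (log2 fold change 0.95, SE 0.23, adjusted p = 0.023). FADS2 had 140 and 150 CPM, against 78.4 and 92.2 CPM (0.77, SE 0.20, adjusted p = 0.033). SREBF1 had 224 and 231 CPM, against 141 and 157 CPM (0.61, SE 0.16, adjusted p = 0.032), and ACACA had 82.0 and 113 CPM, against 147 and 167 CPM (-0.69, SE 0.20, adjusted p = 0.046). In all 4 the libraries of the groups did not overlap. SLC25A20 and ACACA kept their calls only without SW480 Tet2CD DMSO replicate 2, and lost them without any other of the 4 libraries (log2 fold changes 0.77 to 1.09 and -0.97 to -0.49 over the 4 fits), while SREBF1 and FADS2 lost theirs whichever was left out. All 4 calls were also lost with only these libraries fitted or with no filter on low counts. With no filter, 5 other genes were called in their place, namely ACAA1 (0.83), ECHS1 (1.00) and ECI1 (0.89) upwards and ACSL4 (-0.82) and SCD (-0.69) downwards. Without the 3 libraries that stood apart, SREBF1 (0.62, adjusted p = 0.012) and FADS2 (0.80, adjusted p = 0.0052) were called and the other 2 were not, where 10.2% of all genes were called. SCD had 579 and 808 CPM, against 1057 and 1152 CPM (-0.67, SE 0.24, adjusted p = 0.098). FASN (-0.33, adjusted p = 0.20), CPT1A (-0.25, adjusted p = 0.53) and ACADM (-0.56, adjusted p = 0.52) were not called either.

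Averaged over the 3 treatments in SW480, 23 of the 35 genes were called, 14 higher and 9 lower with Tet2CD, where 54.5% of all genes were called. The directions of the called genes differed by role, where 29.2% of all genes were called higher and 25.3% lower. Among the 18 oxidation genes 10 were higher and none was lower, with a median log2 fold change of 0.47, whereas among the 13 lipogenic genes 4 were higher and 7 lower with a median of -0.40, and among the 4 activation genes 2 were lower. The median over all genes was 0.03. Without the 3 libraries that stood apart, 19 genes were called, 11 higher and 8 lower, where 38% of all genes were called, and the medians were 0.15 for oxidation genes, with 8 higher and none lower, and -0.34 for lipogenic genes, with 3 higher and 7 lower. The oxidation genes' values thus moved with these libraries, which also had the highest ribosomal protein shares, and the part of that share in them was not tested.

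ACADS, the short-chain acyl-CoA dehydrogenase, had 8.62, 16.4 and 33.3 CPM (lowest, median, highest of 6) with Tet2CD in SW480, against 3.33, 6.55 and 11.8 CPM with vector (log2 fold change 1.42, SE 0.29, adjusted p = 0.00093). In each treatment its replicate 1 library was the higher of the 2, at 22.8 against 8.62 CPM under TGFB1. Without those 3 libraries its log2 fold change was 0.66 (SE 0.20, adjusted p = 0.015). DECR1 had 6.79, 11.3 and 23.6 CPM, against 2.44, 6.37 and 9.10 CPM (1.19, SE 0.24, adjusted p = 0.00093), and 0.62 without the 3 libraries (adjusted p = 0.017). ECHS1, the short-chain enoyl-CoA hydratase, had 86.2, 169 and 334 CPM, against 69.9, 78.3 and 112 CPM (1.11, SE 0.26, adjusted p = 0.0023), and 0.28 without them (adjusted p = 0.044). The increase of ECI1, an enoyl-CoA isomerase, was 1.11 (SE 0.28, adjusted p = 0.0037) with all libraries and 0.26 without the 3, where its call was lost. ETFB had 156, 240 and 743 CPM, against 132, 157 and 208 CPM (1.04, SE 0.30, adjusted p = 0.0080), with 0.54 on the log2 scale without SW480 Tet2CD RepSox replicate 1 alone, where the call was lost, and 0.01 without the 3. Most of the measured increase of ECHS1, ECI1 and ETFB was therefore in 3 of the 6 Tet2CD libraries.

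The values of SLC25A20 and SREBF1 were much the same with and without these libraries. SLC25A20 had 15.7, 17.6 and 20.8 CPM with Tet2CD, against 6.50, 8.45 and 10.5 CPM with vector (log2 fold change 1.10, SE 0.14, adjusted p = 1.6e-05), and 1.03 without the 3 libraries (SE 0.16, adjusted p = 4.7e-05). Every Tet2CD library lay above every vector library. SREBF1 had 195, 228 and 251 CPM, against 122, 142 and 157 CPM (0.66, SE 0.09, adjusted p = 4.9e-05), and 0.65 without them, again with no overlap. FADS2 was higher (88.4, 145 and 178 CPM, against 78.4, 91.2 and 113 CPM, 0.61, SE 0.12, adjusted p = 0.00066, and 0.72 without the 3 libraries) while its neighbour FADS1, the delta-5 desaturase, was lower (142, 192 and 227 CPM, against 237, 267 and 363 CPM, -0.61, SE 0.12, adjusted p = 0.00097, and -0.40 without them). As counted, the 2 desaturases that act in turn on polyunsaturated acids thus differed in opposite directions. Their gene spans overlap, and reads from the shared stretch cannot be assigned with certainty to either. The value of ACAA1, the peroxisomal thiolase, moved more. It had 72.4, 115 and 153 CPM, against 41.2, 52.2 and 70.2 CPM (1.07, SE 0.17, adjusted p = 0.00011), and 0.64 without the 3 libraries (adjusted p = 7.8e-05).

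The SREBF1 increase stood beside decreases of the synthesis genes ACACA, ACLY and FASN, while the synthesis genes ACSS2 and ACACB were higher. ACACA had 80.6, 90.6 and 115 CPM with Tet2CD in SW480, against 132, 164 and 213 CPM with vector (log2 fold change -0.83, SE 0.11, adjusted p = 3.7e-05). ACLY had 108, 236 and 314 CPM, against 338, 384 and 539 CPM (-0.90, SE 0.20, adjusted p = 0.0016), and -0.50 without the 3 libraries (adjusted p = 4.5e-05). In both genes all 6 Tet2CD libraries lay below all 6 vector libraries. SCD had 511, 705 and 1073 CPM, against 983, 1207 and 2185 CPM (-0.94, SE 0.14, adjusted p = 7.1e-05), with overlap between its highest Tet2CD library, under TGFB1, and vector libraries without TGFB1. FASN was lower by less (479, 540 and 620 CPM, against 571, 664 and 1007 CPM, -0.40, SE 0.09, adjusted p = 0.0018). ELOVL6, which lengthens palmitate to stearate, was lower (-0.71, SE 0.15, adjusted p = 0.0010), as were ELOVL5 (-0.87, SE 0.24, and -0.39 without the 3 libraries, adjusted p = 0.0036) and ACSL4, the synthetase that prefers arachidonate (-1.16, SE 0.33, adjusted p = 0.0080). ACSL4 had 14.5, 61.5 and 109 CPM, against 120, 134 and 189 CPM, and its log2 fold change was -0.55 without the 3 libraries (adjusted p = 0.00056). In the replicate 2 libraries (TGFB1, RepSox, DMSO), ACACA had 115, 99.3 and 113 CPM and ELOVL6 17.0, 19.9 and 16.1 CPM. Both lay below every SW480 vector library. SCD had 1073, 754 and 808 CPM and FASN 620, 542 and 549 CPM, each below the vector libraries of its treatment. Replicate 1 was lower still for ACACA, SCD and FASN under each treatment, and for ELOVL6 except under DMSO. CPT1A (-0.35, SE 0.15, adjusted p = 0.051) and ACADM (-0.72, SE 0.33, adjusted p = 0.076) missed the threshold, and without the 3 libraries they were at -0.07 and -0.18. Of the smaller differences, ACACB (0.39), ECI2 (0.37) and ACSL5 (-0.35) lost their calls in 6, 8 and 8 of the 12 fits that left out 1 library. ACSS2 (0.33) lost its call without SW480 vector TGFB1 replicate 1 or SW480 vector RepSox replicate 2.

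**Figure D3:**
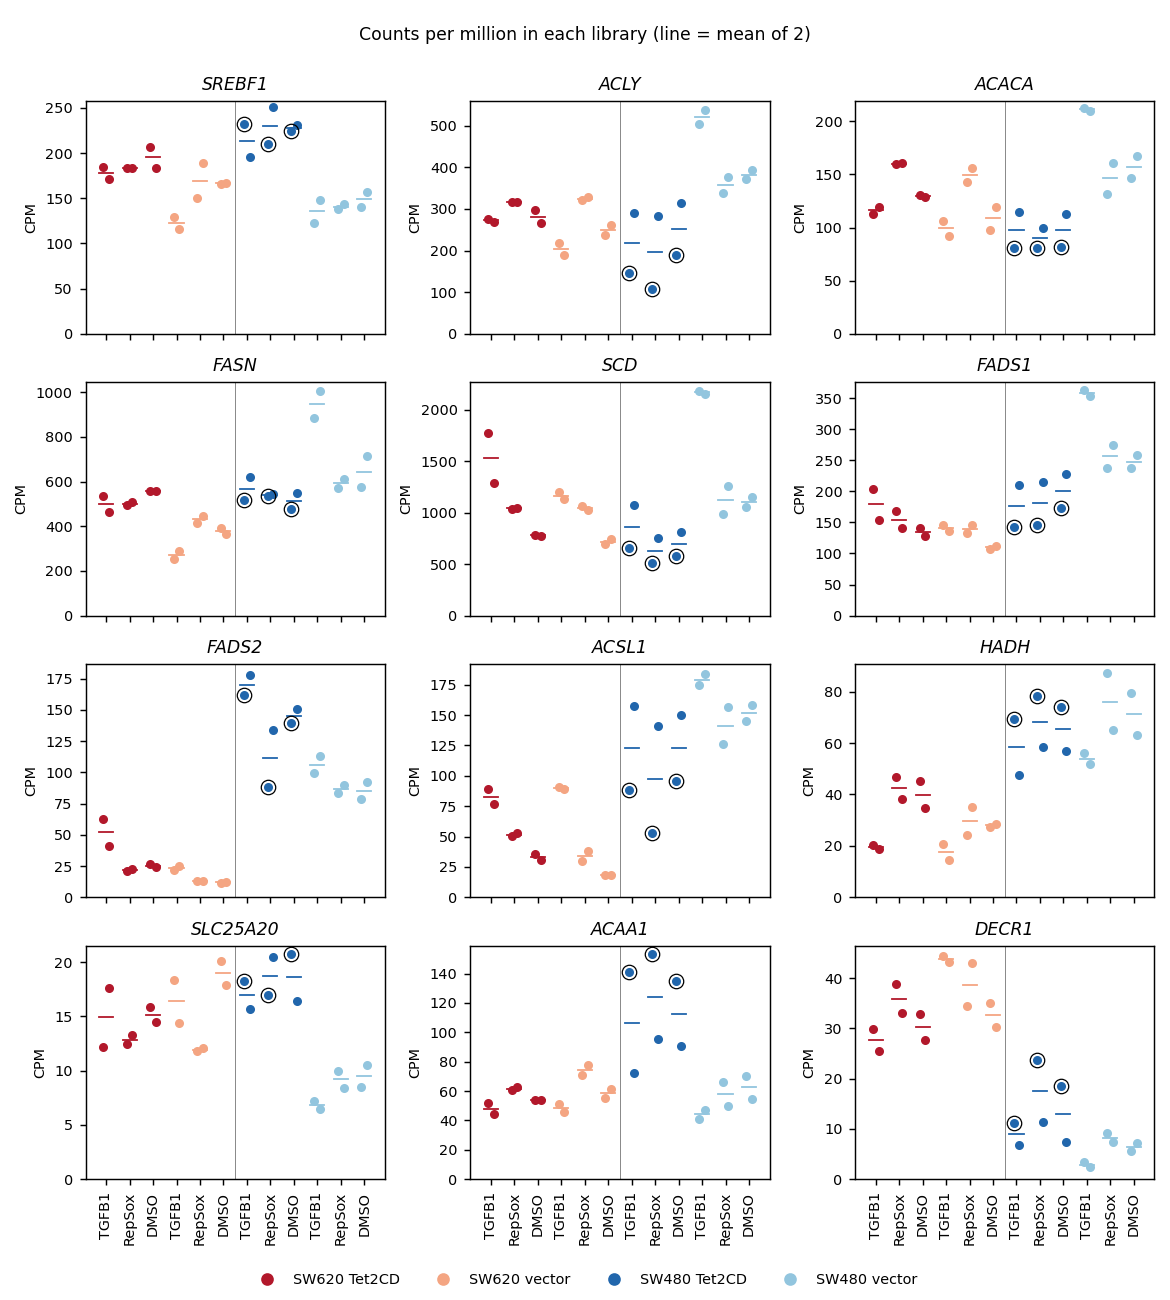
CPM of 12 genes in each of the 24 libraries, by line, construct and treatment, with the mean of each pair as a line and the SW480 Tet2CD replicate 1 libraries ringed. SREBF1 and SLC25A20 are higher and ACACA lower in all 6 SW480 Tet2CD libraries than in all 6 SW480 vector libraries, ringed or not.

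In SW620 the Tet2CD libraries were close to vector. Under DMSO none of the 35 genes was called, where 0.0261% of all genes were (edgeR's quasi-likelihood test), and 3 had an unadjusted p under 0.05; DESeq2 called none either. Averaged over the 3 treatments 2 were called, where 0.314% of all genes were, and both were lipogenic and higher. FADS2 had 21.4, 25.4 and 63.0 CPM (lowest, median, highest of 6) with Tet2CD, against 11.8, 13.1 and 25.4 CPM with vector (log2 fold change 0.99, SE 0.13, adjusted p = 0.0019). Within each treatment its Tet2CD libraries lay above its vector libraries, at 63.0 and 41.4 against 21.8 and 25.4 CPM under TGFB1, 21.4 and 22.6 against 13.4 and 12.8 CPM under RepSox, and 26.6 and 24.2 against 11.8 and 12.3 CPM under DMSO. FASN had 465, 523 and 559 CPM, against 255, 380 and 448 CPM (0.55, SE 0.09, adjusted p = 0.012), with no overlap. FASN lost its call without SW620 vector TGFB1 replicate 1, SW620 vector RepSox replicate 1 or SW620 vector DMSO replicate 2, while its log2 fold change stayed between 0.51 and 0.59. SREBF1 (0.30, SE 0.09, adjusted p = 0.35), SCD (0.17, SE 0.14, adjusted p = 0.90) and CPT1A (0.14, SE 0.14, adjusted p = 0.93) were not called, and ACADM was at -0.01 (SE 0.31). The 18 oxidation genes had a median of -0.03, with 8 values above 0 and 10 below. Within single treatments other than DMSO, Tet2CD called 14 of the 35 genes in SW480 under TGFB1 (8 higher and 6 lower, where 24.7% of all genes were called) and 5 under RepSox (3 higher and 2 lower, where 19.3% were). In SW620 it called none under TGFB1, where 0.00654% of all genes were called (edgeR), with 3 at an unadjusted p under 0.05, and none under RepSox, where 0.0327% were, with 1 at an unadjusted p under 0.05.

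The Tet2CD effect itself was compared between the lines as the SW480 log2 fold change minus that in SW620. It differed for 13 of the 35 genes, 6 upwards and 7 downwards, where 20.1% of all genes were called. All 6 upward differences were oxidation genes, namely DECR1 (1.48, SE 0.31, adjusted p = 0.0043), ACADS (1.24, SE 0.39, adjusted p = 0.036), SLC25A20 (1.22, SE 0.19, adjusted p = 0.00059), ACAA1 (1.20, SE 0.23, adjusted p = 0.0029), ACADVL and ACAA2. The 7 downward differences were 6 lipogenic genes and ACSL1. SCD (-1.11, SE 0.19, adjusted p = 0.0015), ACLY (-1.09, SE 0.28, adjusted p = 0.014), ACACA (-1.02, SE 0.16, adjusted p = 0.00061) and FASN (-0.95, SE 0.13, adjusted p = 0.00016) had values below 0 in SW480 and above 0 in SW620, and FADS1 and ELOVL6 were called as well. FADS2 (-0.38, adjusted p = 0.12) and SREBF1 (0.37, adjusted p = 0.058) had values above 0 in both lines and their difference was not called. CPT1A (-0.49, adjusted p = 0.096) and ACADM (-0.70, adjusted p = 0.26) were not called. Without the 3 libraries that stood apart, 14 genes were called, 6 upwards and 8 downwards, where 19.5% of all genes were. FASN (-0.90), SCD (-0.87), ACACA (-0.86), SLC25A20 (1.14), ACAA2 (0.42) and FADS1 (-0.67) were still called, as were, with values smaller by over 1.5 times, DECR1 (0.90), ACAA1 (0.76), ACADVL (0.34), ACLY (-0.70) and ACSL1 (-0.55). ACADS (0.46) and ELOVL6 (-0.48) were not called. In this setting SREBF1 was called upwards (0.35, adjusted p = 0.039), and ACSL4 (-0.46, adjusted p = 0.027) and the oxidation gene HADH (-0.72, adjusted p = 0.011) downwards. ACADS, ELOVL6 and ACSL1 lost their calls in 19, 18 and 15 of the 24 fits that left out 1 library.

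**Figure D4:**
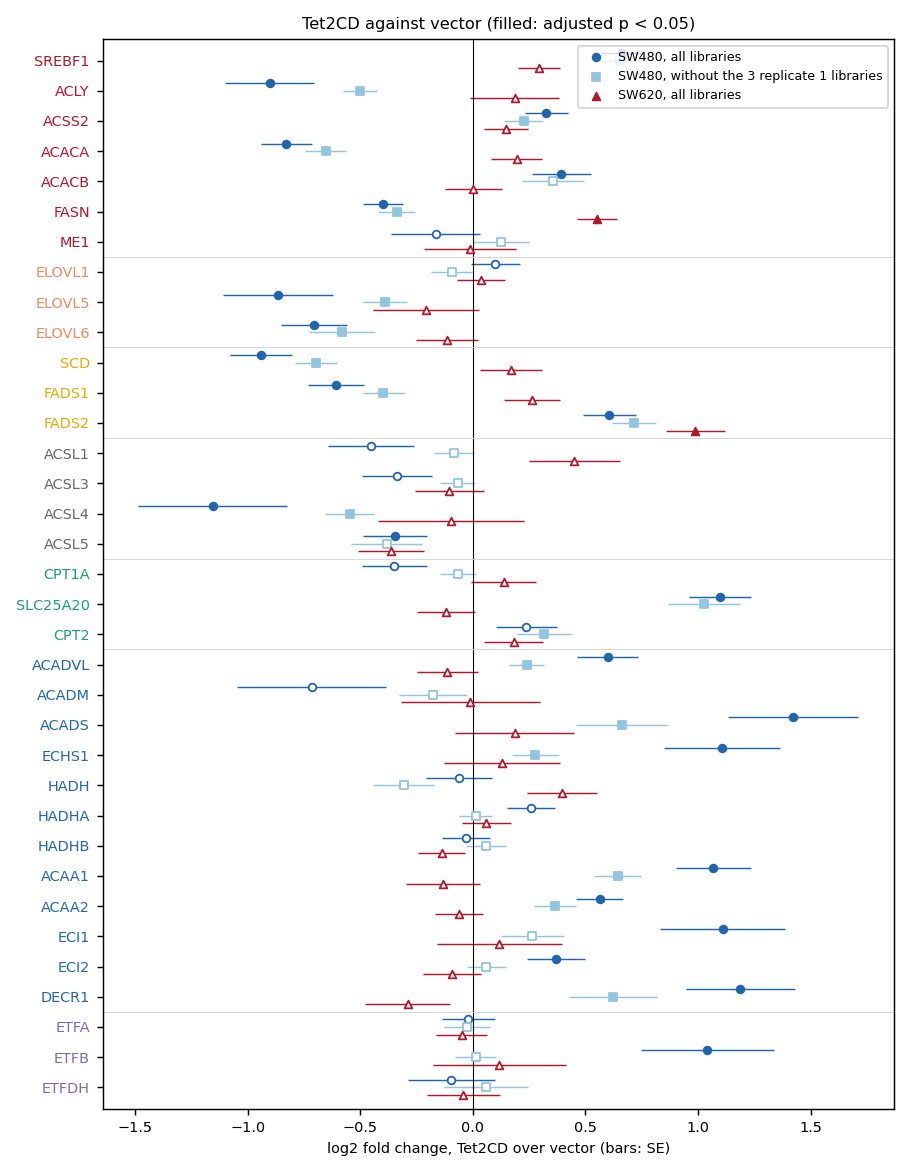
Log2 fold change of each gene, Tet2CD over vector, averaged over 3 treatments, in SW480 with all libraries (circles), in SW480 without the 3 replicate 1 libraries (squares) and in SW620 (triangles), with bars of 1 SE and filled symbols at adjusted p under 0.05. SLC25A20 and SREBF1 keep their SW480 values without the 3 libraries (1.03 and 0.65), while ETFB is at 0.01, and in SW620 only FADS2 (0.99) and FASN (0.55) are filled.

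TGFB1 was compared with DMSO within each line over both constructs, 4 libraries against 4. In SW620, 6 of the 35 genes were called, 4 higher and 2 lower, where 15.6% of all genes were called, so that the share of these genes (6 of 35) was near the background. ACSL1 had 89.1, 76.6, 91.1 and 88.9 CPM under TGFB1, against 35.7, 30.5, 18.3 and 18.2 CPM under DMSO, each with the 2 Tet2CD libraries before the 2 vector libraries (log2 fold change 1.81, SE 0.25, adjusted p = 0.00014). FADS2 had 63.0, 41.4, 21.8 and 25.4 CPM, against 26.6, 24.2, 11.8 and 12.3 CPM (1.01, SE 0.16, adjusted p = 0.00045). SCD had 1779, 1285, 1200 and 1133 CPM, against 781, 778, 694 and 743 CPM (0.84, SE 0.17, adjusted p = 0.0028). ACSL1 and SCD did not overlap between treatments, and FADS2 did not overlap within either construct. HADH fell, with 20.4, 18.6, 20.6 and 14.6 CPM under TGFB1, against 45.2, 34.7, 27.5 and 28.4 CPM under DMSO (-0.85, SE 0.19, adjusted p = 0.0060). ACSL5 rose (27.7, 15.3, 27.2 and 25.6 CPM, against 10.4, 14.2, 16.7 and 15.2 CPM, 0.77, SE 0.18, adjusted p = 0.0068), and lost its call without SW620 Tet2CD DMSO replicate 1 or SW620 Tet2CD TGFB1 replicate 1 (log2 fold changes 0.52 to 0.94 over 8 such fits). ECI2, an enoyl-CoA isomerase, fell (39.4, 41.4, 56.8 and 50.6 CPM, against 66.3, 65.7, 63.8 and 66.6 CPM, -0.49, SE 0.16, adjusted p = 0.043), and its call was lost in 7 of the 8 fits that left out 1 library.

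FASN (-0.32, adjusted p = 0.060), SREBF1 (-0.29, adjusted p = 0.10), ACADM (0.13, adjusted p = 0.87) and CPT1A (0.00, SE 0.18) were not called under TGFB1 in SW620. By role, the 4 activation genes had a median log2 fold change of 0.71, the 3 desaturases 0.84 and the 18 oxidation genes -0.18, against 0.01 over all genes, and 15 of the 18 oxidation genes had a value below 0. Without the 3 SW480 libraries that stood apart, which enter this contrast only through the spread, 16 of the 35 genes were called, 7 higher and 9 lower, where 34.5% of all genes were called. All 4 activation genes were then higher and 7 oxidation genes lower, among them ACADS (-0.84, adjusted p = 0.00082), ECI1 (-0.56, adjusted p = 0.0043) and ECHS1 (-0.32, adjusted p = 0.029).

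In SW480, none of the 35 genes was called under TGFB1 over both constructs, where 1.05% of all genes were (edgeR), with 4 at an unadjusted p under 0.05; DESeq2 called 2. SCD had 655, 1073, 2185 and 2159 CPM under TGFB1, against 579, 808, 1057 and 1152 CPM under DMSO (log2 fold change 0.65, SE 0.17, adjusted p = 0.082), so the vector libraries were apart and the Tet2CD libraries were not. FASN was at 0.35 (adjusted p = 0.15), FADS2 at 0.27 (adjusted p = 0.46), SREBF1 at -0.11 (adjusted p = 0.77), CPT1A at -0.04 (adjusted p = 0.97) and ACADM at -0.51 (adjusted p = 0.67). Without the 3 libraries that stood apart, SCD was at 0.69, FASN at 0.36 and FADS2 at 0.27. In that fit SREBF1 was at -0.19, CPT1A at 0.03 and ACADM at -0.41. The constructs were then taken apart, a choice made after seeing these values. In SW480 vector cells no gene of the 35 was called, where 0.529% of all genes were, with 7 at an unadjusted p under 0.05 and 2 called by DESeq2, and SCD was at 0.98 (SE 0.24, adjusted p = 0.085) and FASN at 0.56 (SE 0.15, adjusted p = 0.14). In SW480 Tet2CD cells none was called, where 0.0915% of all genes were, with 1 at an unadjusted p under 0.05 and none by DESeq2, and SCD was at 0.32 (SE 0.24, adjusted p = 0.91). The difference between the constructs was called for none, where 0.0131% of all genes were, with 1 at an unadjusted p under 0.05 and none by DESeq2, and was -0.66 for SCD (SE 0.34). Without the 3 libraries, 7 of the 35 genes were called in vector cells, where 7.59% of all genes were: SCD (0.98, adjusted p = 0.00013), ETFDH (0.87), FASN (0.56, adjusted p = 0.0057), FADS1 (0.54), ACLY (0.45) and ACACA (0.43) rose and DECR1 (-1.13, adjusted p = 0.041) fell.

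The TGFB1 effect in SW620 minus that in SW480 differed for 2 of the 35 genes, where 2.07% of all genes were called. It was 1.69 for ACSL1 (SE 0.34, adjusted p = 0.016) and -0.67 for FASN (SE 0.16, adjusted p = 0.033). In SW480, ACSL1 had 88.2, 158, 175 and 184 CPM under TGFB1, against 95.7, 150, 145 and 159 CPM under DMSO, and the 4 vector libraries among these lay above all 8 SW620 libraries of the contrast. Each of these calls was lost in 11 of the 16 fits that left out 1 library. FADS2 (0.73, adjusted p = 0.094), SCD (0.19, adjusted p = 0.83), SREBF1 (-0.17, adjusted p = 0.73), ACADM (0.64, adjusted p = 0.71) and CPT1A (0.04, SE 0.25) were not called. Without the 3 SW480 libraries that stood apart, the difference stayed near these values, at 1.63 for ACSL1 and -0.71 for FASN. It was 0.71 for FADS2, 0.82 for ACSL5 and 0.12 for SCD.

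**Figure D5:**
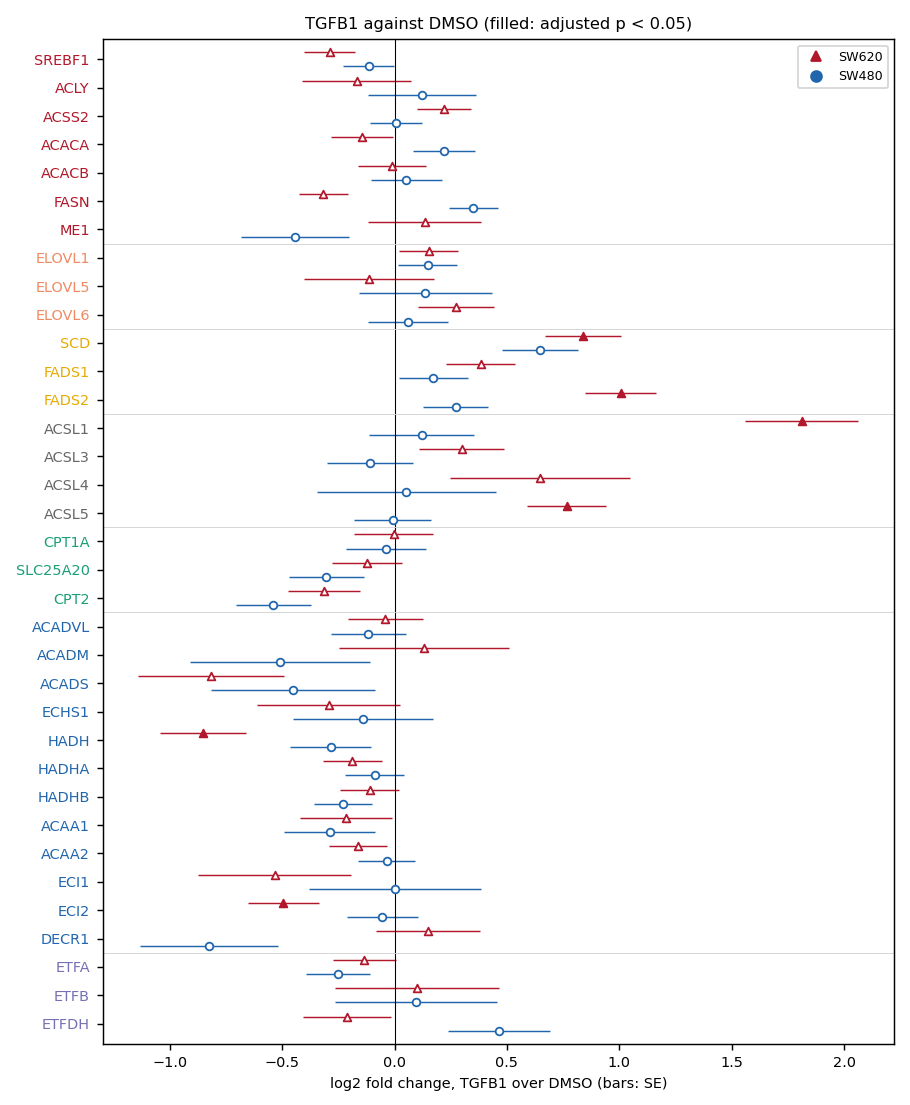
Log2 fold change of each gene, TGFB1 over DMSO, in SW620 (triangles) and SW480 (circles) over both constructs, 4 libraries against 4, with bars of 1 SE and filled symbols at adjusted p under 0.05. ACSL1 (1.81), FADS2 (1.01), SCD (0.84) and ACSL5 (0.77) rose and HADH (-0.85) and ECI2 (-0.49) fell in SW620, and no symbol is filled in SW480.

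RepSox was set against the same DMSO libraries, so its values are not independent of those for TGFB1. No gene of the 35 was called in SW480, where 0% of all 15302 genes were called (edgeR, none of the 35 at an unadjusted p under 0.05, none by DESeq2), and the log2 fold changes lay between -0.38 and 0.54. In SW620 none was called, where 4.69% of all genes were, with 6 at an unadjusted p under 0.05 and 2 called by DESeq2. SCD had 1039, 1045, 1062 and 1029 CPM under RepSox in SW620, Tet2CD before vector, against 781, 778, 694 and 743 CPM under DMSO (log2 fold change 0.48, SE 0.17, adjusted p = 0.13), with no overlap. CPT1A was at 0.15 (adjusted p = 0.78), SREBF1 at -0.03, FADS2 at -0.04, FASN at 0.01 and ACADM at -0.01. Without the 3 SW480 libraries, 7 of the 35 genes were called in SW620, where 15.4% of all genes were: ACSL1 (0.74, adjusted p = 0.00018), SCD (0.46, adjusted p = 0.0016), ETFA (0.40), ACACA (0.36) and ACLY (0.25) were higher and ETFDH (-0.68, adjusted p = 0.0053) and SLC25A20 (-0.47, adjusted p = 0.046) lower. The RepSox effect in SW620 minus that in SW480 was called for none by edgeR, where 1.03% of all genes were, with 3 at an unadjusted p under 0.05 and none by DESeq2. By edgeR it was 0.98 for ACSL1 (SE 0.35, adjusted p = 0.24) and 0.53 for SCD (SE 0.24, adjusted p = 0.40). Without the 3 SW480 libraries it was 0.84 for ACSL1 and 0.50 for SCD.

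Of 73 other genes of the pathway listed by role, 72 were found by name (all but TECR) and 63 passed the filter on low counts and were tested. Between the vector lines, averaged over treatments, 15 were higher and 22 lower in SW620, where 58.9% of all genes were called. ACSS1, the mitochondrial acetate enzyme, averaged 0.456 ± 0.23 CPM in SW620 vector DMSO libraries and 38.6 ± 1.5 CPM in SW480 (SD, n = 2 each). PPARD and LPIN1, a phosphatidate phosphatase, were also lower (-3.03, SE 0.14, and -2.84, SE 0.20), and the fatty acid receptor PPARG (1.55, SE 0.11), the AMPK subunit PRKAA2 (1.71, SE 0.19) and the lipid droplet coat protein PLIN2 (0.73, SE 0.08) were higher. With Tet2CD in SW480, averaged over treatments, 23 were higher and 13 lower, where 54.5% of all genes were called, and 18 were higher and 12 lower without the 3 libraries, where 38% were. CPT1C, a brain form of the carnitine palmitoyltransferase (2.80, SE 0.31), the acyl-CoA synthetase ACSL6 (2.32, SE 0.26) and carnitine acetyltransferase CRAT (0.88, SE 0.11) were higher, and PPARG (-1.82, SE 0.14), PLIN2 (-0.74, SE 0.09) and PPARD (-0.79, SE 0.13) were lower. CPT1C and ACSL6 started from low levels, with SW480 vector group means of 1.45 to 2.05 CPM and 2.47 to 4.35 CPM. Their SW480 Tet2CD group means were 9.66 to 20.4 CPM and 12.9 to 21.6 CPM. Without the 3 libraries CPT1C was at 2.40, ACSL6 at 2.43, CRAT at 0.68, PPARG at -1.83, PLIN2 at -0.77 and PPARD at -0.63, all still called. PPARG averaged 1.78 ± 0.30 CPM in SW480 Tet2CD DMSO libraries and 15.5 ± 1.7 CPM in SW480 vector DMSO libraries (SD, n = 2 each). With Tet2CD in SW620 none was called in either contrast (edgeR), with 9 at an unadjusted p under 0.05 in the average. Under TGFB1 in SW620, 9 were higher and 7 lower, where 15.6% of all genes were called. PPARG (1.39, SE 0.13), the sterol sensor INSIG1 (1.70, SE 0.18) and the lipid droplet protein HILPDA (1.51, SE 0.17) rose, and the thiolase ACAT1 (-0.69, SE 0.13), the fatty acid binding protein FABP5 (-1.06, SE 0.21) and ACAD9 (-0.70, SE 0.15) fell. PPARG was the 1 gene of the list called under TGFB1 in SW480 (1.14, SE 0.18, adjusted p = 0.0045) and under RepSox in SW620 (0.50, SE 0.13, adjusted p = 0.039), each by edgeR. The SW480 value averages constructs that went apart. With Tet2CD the PPARG mean was 1.78 CPM under DMSO and 9.88 CPM under TGFB1. With vector it did not rise, at 15.5 CPM under DMSO and 14.1 CPM under TGFB1.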

How the data were processed

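RNA-seq of 24 libraries was analysed from the gene tables of RSEM. Per the labels the tools were Bowtie and RSEM and the build mm10, although the identifiers are human Ensembl genes. The study's methods name trimming, RSEM with bowtie2 and a GC-content normalization, with strand use not given in the sources used here but relevant to overlapping genes. The authors deposited, per gene, expected counts (not whole) and TPM, without further scaling between libraries. Expected counts were rounded and tested with edgeR 4.0.16 in R 4.3.3 (TMM scaling, filterByExpr, quasi-likelihood F test, 1 fit of all 24 libraries with a mean per group and 12 residual degrees of freedom, common biological coefficient of variation 21.3%), with Benjamini-Hochberg adjustment over 15302 genes and a threshold of 0.05. CPM are counts scaled by the TMM library sizes. The standard error (SE) of a log2 fold change is its size divided by the square root of F. Symbols came from GENCODE 29, which matched 32777 of 33382 identifiers. The 35 genes and all lists were chosen with earlier results of these data known. In each comparison up to 6 called genes with the largest log2 fold change were described in full, SREBF1, FASN, SCD, FADS2, CPT1A and ACADM always, and up to 3 other pathway genes per direction by smallest p. There were 13 comparisons, 3 more added after values were seen, and 7 alternatives, among them DESeq2 1.42.0. The fit was tested on simulated data with independent libraries and the same spread in every group. That test could not show how calls hold where libraries vary together, as the SW480 Tet2CD replicate 1 libraries did. Tet2CD against vector under TGFB1 and under RepSox alone (4 more) was fitted without alternatives.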

Additional observations from a re-analysis of the deposited data

Results flagged for a closer look

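The following values are differences between the lines that passed a test of the difference itself (edgeR's quasi-likelihood test, adjusted p under 0.05), on the log2 scale. For the Tet2CD effect, SW480 minus SW620, averaged over 3 treatments, they were 1.48 for DECR1, 1.24 for ACADS, 1.22 for SLC25A20, 1.20 for ACAA1, 0.71 for ACADVL and 0.62 for ACAA2, and -1.11 for SCD, -1.09 for ACLY, -1.02 for ACACA, -0.95 for FASN, -0.90 for ACSL1, -0.87 for FADS1 and -0.59 for ELOVL6. For the TGFB1 effect, SW620 minus SW480, they were 1.69 for ACSL1 and -0.67 for FASN. The TGFB1 values rest on TGFB1 and DMSO libraries and not on RepSox libraries. They were 1.63 for ACSL1 and -0.71 for FASN without the SW480 Tet2CD replicate 1 libraries. The Tet2CD values rest on all 3 of these libraries. Without them the Tet2CD values were 0.90 for DECR1, 0.76 for ACAA1, 0.34 for ACADVL, -0.70 for ACLY and -0.55 for ACSL1, each smaller by over 1.5 times and still called, and 0.46 for ACADS and -0.48 for ELOVL6, which were no longer called.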

How the results depend on the processing

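Counts of called genes among the 35 moved by more than 1.5 times in these cases. Without the 3 SW480 Tet2CD replicate 1 libraries they were 2 for Tet2CD in SW480 under DMSO, 4 for Tet2CD in SW620 over treatments, 2 for TGFB1 in SW480 (7 in vector cells alone), 16 for TGFB1 and 7 for RepSox in SW620, 4 and 1 for the TGFB1 and RepSox effects, SW620 minus SW480, and 22 for SW620 against SW480 under DMSO. With only the libraries of each contrast they were 0 for Tet2CD in SW480 under DMSO, 5 for Tet2CD in SW620 under DMSO and 5 over treatments, 16 for TGFB1 and 9 for RepSox in SW620, 5 for TGFB1 in SW480 vector cells, 1 for the TGFB1 effect, SW620 minus SW480, and 22 for SW620 against SW480 under DMSO. With no filter on low counts they were 1 each for TGFB1 in SW480 (also in vector cells alone), RepSox in SW620 and the TGFB1 and RepSox effects, SW620 minus SW480, and with DESeq2 they were 2 for TGFB1 in SW480, 2 for it in vector cells alone and 2 for RepSox in SW620. Leaving out 1 library gave 0 to 4 for Tet2CD in SW480 under DMSO, 1 to 2 for Tet2CD in SW620 over treatments, 10 to 24 for the Tet2CD effect, SW480 minus SW620, 0 to 1 for TGFB1 in SW480, 0 to 3 and 0 to 1 for the TGFB1 and RepSox effects, SW620 minus SW480, and 9 to 10 for SW620 against SW480 under DMSO. The cause was not tested, apart from the fewer samples or other genes tested that each setting brings. Of 85 called values, none changed sign where it was computed (72 of them with only the libraries of the contrast, which could not be fitted apart for the Tet2CD effect between lines). A lone library left in a group was assumed to vary like the other groups.

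The labels do not tie library numbers to a shared day or culture. A term for the numbers 21 to 32 against 33 to 44 (replicate block) gave 5 called genes in place of 4 for Tet2CD in SW480 under DMSO and 26 in place of 23 over treatments, and 1 of the 85 calls was lost. The half-differences within groups correlated over 0.1 in 12 of 66 pairs of groups (median 0.03, highest 0.71, among the SW480 Tet2CD groups), so the numbers were not taken to pair libraries. With totals of 2146123 to 4410567 expected counts, the lowest counts were 3 for ACADM, 8.32 for ETFDH and 9 for DECR1. At such counts small differences are not detectable.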
